A study of Mus musculus with 4 samples.

Results

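Aminoacyl-tRNA synthetases are the enzymes that join each amino acid to its transfer RNA (tRNA), the step that gives the genetic code its meaning at the ribosome. One set of nuclear genes serves the cytosol. A second set, named with the suffix 2, encodes enzymes that are imported into mitochondria and charge the tRNAs of the mitochondrial genome. Several cytosolic synthetases are known targets of ATF4, the transcription factor that is translated when the kinases of the integrated stress response, among them the endoplasmic reticulum (ER) sensor PERK, phosphorylate eIF2 alpha.

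The list held 36 synthetase genes, 20 cytosolic and 16 mitochondrial, chosen by name. Of these, 34 were measured among 19938 genes, 18 cytosolic and 16 mitochondrial. Dars was not among the annotated probe sets, and the only probe set of Aars also names Exosc6, so neither entered the counts. All 34 stood above the floor for expression on all 4 arrays, so that no member entered through 1 group only. That floor was set on each array from genes of olfactory and related receptors, which the intestine should not express. Iars was the 1 member with more than 1 probe set.

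The study asked what the loss of ZIP7 (Slc39a7), a transporter that carries zinc out of the ER and Golgi, does to intestinal crypt cells. Adult mice carrying villin-CreERT2, which acts throughout the intestinal epithelium, and Lgr5-EGFP-ires-CreERT2, which reports and acts in Lgr5-expressing crypt cells, received tamoxifen for 2 days. Control mice were Zip7flox/+, so their floxed copy is exposed to the same recombinases, and knockout mice (Zip7 KO below) were Zip7flox/flox. Crypt cells were sorted into fractions labelled Lgr5-Hi and Lgr5-Med (Lgr5-Mid in the titles), which gave 4 groups of 1 array. The labels give neither the number of mice behind an array nor whether both fractions came from the same mice. In bulk samples such as these, fewer cells of a type and less RNA per cell cannot be told apart.

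A few facts of the series bear on every value below. The epithelial marker genes were present on all arrays, but Lgr5 was lower under the label Lgr5-Hi (7.79 in control and 7.93 in Zip7 KO) than under Lgr5-Med (10.97 and 11.24), against the labels, which are kept as given. Slc39a7 was 0.10 higher in Zip7 KO than in control under Lgr5-Hi and stood at -0.39 under Lgr5-Med; its probe positions were not used here, so that these values do not check the deletion. Xist stood at 11.64 and 11.84 in controls against 5.59 and 5.43 in Zip7 KO, so sex and genotype cannot be told apart. All differences below are in log2 units with 1 array per group and no spread within a group, and none was tested.

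Promoter sequences were examined because ATF4 binds a composite C/EBP-ATF element whose core reads TGATGNAA. RefSeq promoter windows on GRCm38.p6, from 250 bases before to 50 after a listed transcription start, were found for 27 of the 36 genes. On either strand, TGATGNAA occurred in 5 of 13 cytosolic windows (Aars, Gars, Iars, Tars and Yars) and in 0 of 14 mitochondrial ones. It occurred in 4.51% of all 27025 genes with a window and in 3.97% of all 32851 windows of this length. Among the 9622 genes with a window that entered the Lgr5-Hi genotype comparison the share was 2.57%. A match describes letters in a window and not a bound site. The windows of the 4 matching genes with a probe set of their own are printed below from 100 bases before to 30 after the start, with the match in capitals. Sars, the member with the largest genotype difference, is shown beside them because its window holds no match.

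Iars, chr13:49682030-49682159, plus strand: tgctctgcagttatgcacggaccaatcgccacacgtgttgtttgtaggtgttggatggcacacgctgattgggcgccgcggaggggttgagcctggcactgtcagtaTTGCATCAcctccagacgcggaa
Tars, chr15:11399629-11399758, minus strand: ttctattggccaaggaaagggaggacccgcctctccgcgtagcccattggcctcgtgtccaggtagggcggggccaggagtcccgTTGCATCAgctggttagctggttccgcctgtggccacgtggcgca
Gars, chr6:55037901-55038030, plus strand: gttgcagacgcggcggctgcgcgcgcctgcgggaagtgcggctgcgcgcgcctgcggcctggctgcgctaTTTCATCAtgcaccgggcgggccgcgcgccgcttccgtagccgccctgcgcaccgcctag
Yars, chr4:129189803-129189932, plus strand: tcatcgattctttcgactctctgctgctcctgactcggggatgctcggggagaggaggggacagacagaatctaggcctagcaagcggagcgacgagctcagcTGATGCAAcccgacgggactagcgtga
Sars, chr3:108445230-108445359, minus strand: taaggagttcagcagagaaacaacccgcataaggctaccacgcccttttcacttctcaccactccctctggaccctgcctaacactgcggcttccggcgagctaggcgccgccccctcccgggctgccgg

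The matches lay close to the start in these 4 genes. The first base of the match was 30 bases before the start in Gars (position -30) and at -15 in Tars, and at 4 and 8 bases into the transcript in Yars and Iars. Iars and Tars carried the same letters, the reverse complement of those in Yars. Other motifs were also searched on both strands. The E-box CACGTG, which MYC and related factors bind, was in 4 of 13 cytosolic and 1 of 14 mitochondrial windows. Its share was 8.09% of all genes with a window and 11.7% of those in the Lgr5-Hi genotype comparison. CCAAT, bound by NF-Y, was in 7 and 6 of these windows (41.1% and 42.1%). The interferon-stimulated response element, searched as GAAA, any 2 bases and GAAA again, was in the window of Qars alone among the 27 (3.99% and 3.42%). No match of one motif overlapped a match of another in these genes.

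In cells labelled Lgr5-Hi, the cytosolic synthetases were higher in the Zip7 KO array than in the control array, and the mitochondrial ones lay on both sides of 0. Of 18 cytosolic genes 16 were higher, where 55.0% of the 12017 genes compared were. Their median difference was 0.24 (1.18-fold), with a range from -0.16 to 0.51, beside a median of 0.02 over all genes. Of 16 mitochondrial genes 8 were higher, with a median of 0.0023 and a range from -0.18 to 0.34. None of the 34 reached 2-fold in either direction, where 0.25% of all genes were that much higher and 0.233% lower. A smaller step of 0.32 on the log2 scale was counted as well. At least 0.32 higher were the cytosolic genes Sars, Iars and Tars and the mitochondrial gene Nars2, where 6.93% of all genes were, and none was that much lower (5.55% of all genes). The cytosolic median was 0.16 with the trend of the difference on mean level removed and 0.29 with arrays centred on their medians, with 16 and 17 of 18 genes higher. The sign of the mitochondrial median turned under the first of these (-0.04) and under quantile normalisation (-0.04), and 12 of 16 mitochondrial genes were higher after centring, where 65.4% of all genes were.

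**Figure D1:**
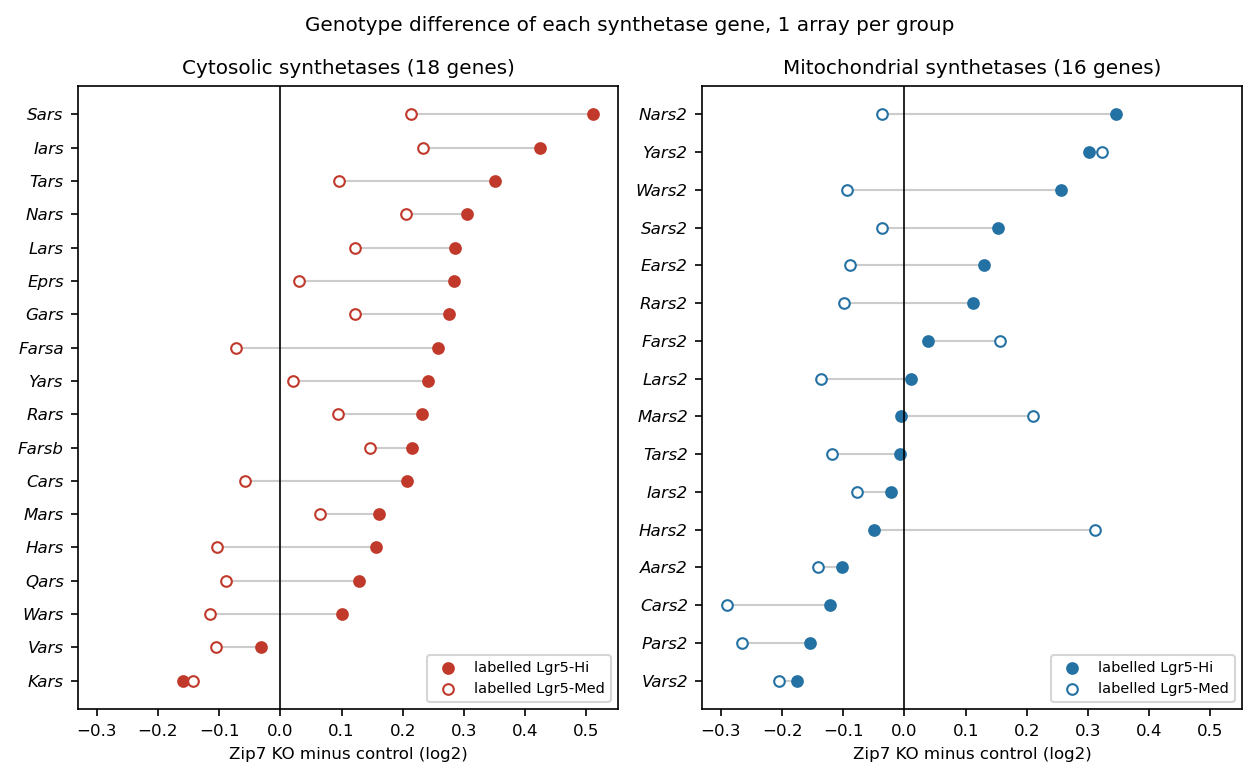
Zip7 KO minus control on the log2 scale (x axis) for each measured cytosolic (left) and mitochondrial (right) synthetase gene, with filled points for arrays labelled Lgr5-Hi and open points for Lgr5-Med, 1 array per group and therefore no error bars. Filled cytosolic points lie right of 0 in 16 of 18 genes, and filled mitochondrial points in 8 of 16.

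The largest cytosolic difference was that of Sars, the seryl-tRNA synthetase. Its level was 9.63 in control and 10.14 in Zip7 KO cells labelled Lgr5-Hi, and 9.35 and 9.56 in those labelled Lgr5-Med. The difference was 0.51 (1.43-fold) and 0.21 in the same order, and the Zip7 KO array labelled Lgr5-Hi was the highest of the 4.

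Iars, the isoleucyl-tRNA synthetase of the multisynthetase complex, was at 10.30 in control and 10.72 in Zip7 KO under the label Lgr5-Hi, and at 10.68 and 10.91 under Lgr5-Med. The differences were 0.42 and 0.23. The control array labelled Lgr5-Hi was the lowest of the 4, and the Zip7 KO array with that label lay between both arrays labelled Lgr5-Med. Its second probe set gave 0.39 and 0.11.

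Tars charges threonine and is one of the genes whose window is printed above. It was at 8.61 in control and 8.96 in Zip7 KO cells labelled Lgr5-Hi, and at 8.41 and 8.50 in those labelled Lgr5-Med. The difference under Lgr5-Hi was 0.35 (1.27-fold) against 0.10 under Lgr5-Med. Nars, the asparaginyl-tRNA synthetase, was at 10.98 and 11.29 under Lgr5-Hi and at 10.61 and 10.81 under Lgr5-Med, with differences of 0.30 and 0.21. For Sars, Tars and Nars alike, both arrays labelled Lgr5-Hi were above both labelled Lgr5-Med.

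Lars, of the same complex as Iars, also serves as a leucine sensor for the growth kinase mTORC1. Its level was 8.76 in control and 9.05 in Zip7 KO under Lgr5-Hi, and 8.86 and 8.98 under Lgr5-Med. Eprs, which joins glutamyl- and prolyl-tRNA synthetase in 1 protein, was at 9.56 and 9.84, and at 9.63 and 9.66, in the same order. Both differed by 0.28 under Lgr5-Hi, and by 0.12 and 0.03 under Lgr5-Med. In both genes the Zip7 KO array labelled Lgr5-Hi was highest and the control array with that label lowest.

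Gars and Kars, for glycine and lysine, each supply both the cytosol and the mitochondria from 1 gene. They differed in opposite directions. Gars was at 9.85 in control and 10.12 in Zip7 KO cells labelled Lgr5-Hi and at 9.64 and 9.76 in those labelled Lgr5-Med, differences of 0.28 and 0.12. Kars was at 8.74 and 8.58, and at 8.98 and 8.83, differences of -0.16 and -0.14. Kars was the lowest of the 18 cytosolic genes in both genotype comparisons.

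Vars, for valine, was the other cytosolic gene not higher under the label Lgr5-Hi, at -0.03, a sign that turned after median centring (0.02). Wars, the tryptophanyl-tRNA synthetase, is induced by interferon gamma and is set apart here for that reason. It was at 10.14 in control and 10.24 in Zip7 KO under Lgr5-Hi, and at 9.94 and 9.83 under Lgr5-Med, differences of 0.10 and -0.12. Beside it, 9 of 10 interferon-stimulated genes above the floor were lower in Zip7 KO under Lgr5-Hi (median -1.35), and 10 of 10 under Lgr5-Med (median -1.56). Farsa and Farsb, the alpha and beta subunits of the phenylalanyl-tRNA synthetase, were 0.26 and 0.22 higher under Lgr5-Hi, and at -0.07 and 0.15 under Lgr5-Med. The remaining cytosolic genes (Cars, Hars, Mars, Qars, Rars and Yars) lay between 0.13 and 0.24 under Lgr5-Hi. The probe set shared by Aars and Exosc6 gave 0.21 under Lgr5-Hi and 0.02 under Lgr5-Med.

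The cytosolic genes were also split by what the enzymes are. The 7 measured members of the multisynthetase complex, in which several synthetases are held on a scaffold, had a median of 0.23, and the 11 outside it one of 0.24. The 9 class I and 8 class II enzymes, which differ in the fold of the catalytic domain, had medians of 0.21 and 0.27, with Eprs, which holds both, left out. In both splits the median of either side lay within the range of the genes of the other. The 4 measured genes with a TGATGNAA match had a median of 0.31 under Lgr5-Hi. The 7 with a window but no match had one of 0.22, from -0.16 (Kars) to 0.51 (Sars). For the E-box the medians were 0.35 for 3 genes with a match and 0.25 for 8 without, and Iars and Tars carried both motifs. Between fractions of control cells (Lgr5-Hi minus Lgr5-Med) the TGATGNAA split also differed, at 0.17 with a match and -0.09 without. The 247 genes of any function with a TGATGNAA match had a median of 0.06 under Lgr5-Hi against 0.03 for all genes with a window. Under Lgr5-Med this ran the other way, at -0.06 for 249 genes with a match against -0.03. Genes with an E-box match were likewise above under Lgr5-Hi, at 0.05 against 0.03.

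Among the mitochondrial genes, Nars2 and Yars2 stood highest under the label Lgr5-Hi. Nars2, for asparagine, was at 8.01 in control and 8.36 in Zip7 KO under Lgr5-Hi, a difference of 0.34 (1.27-fold), and at 8.12 and 8.08 under Lgr5-Med, a difference of -0.04 whose sign turned with the trend on level removed. Yars2, for tyrosine, was at 8.44 and 8.75 under Lgr5-Hi and at 8.79 and 9.11 under Lgr5-Med, with differences of 0.30 and 0.32. It was the 1 synthetase at least 0.32 higher under Lgr5-Med, where 3.47% of all genes were, and none was that much lower (8.39%).

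Cars2 and Hars2 had larger differences under Lgr5-Med. Cars2, for cysteine, which is also known to make cysteine persulfides, was at 8.42 and 8.30 under Lgr5-Hi and at 8.47 and 8.18 under Lgr5-Med, differences of -0.12 and -0.29. Hars2, for histidine, was at 8.20 and 8.15 under Lgr5-Hi and at 8.04 and 8.35 under Lgr5-Med, differences of -0.05 and 0.31, the first of which turned to 0.00045 after median centring. Hars2 lies next to its cytosolic counterpart Hars on the chromosome (gene order of GRCm38.p6), and Hars went the other way in each fraction, at 0.16 and -0.10. The other 12 mitochondrial genes ranged from -0.18 (Vars2) to 0.26 (Wars2) under Lgr5-Hi, and 5 of them changed sign under at least 1 scaling or probe set alternative.

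In cells labelled Lgr5-Med the cytosolic median was nearer 0 than under Lgr5-Hi, and the mitochondrial one lay below 0. Of the 18 cytosolic genes 11 were higher in Zip7 KO, where 44.2% of 12257 genes were, with a median of 0.05 and a range from -0.14 to 0.23. None of the 18 was 0.32 or more apart. Of the 16 mitochondrial genes 4 were higher (Fars2, Hars2, Mars2 and Yars2), with a median of -0.09 and a range from -0.29 to 0.32, beside -0.03 over all genes. The cytosolic median was 0.03 when only amino acids with both kinds of gene were used, likewise 0.03 with the probe set of Aars and Exosc6 taken as Aars, and 0.08 without Gars, Kars, Qars and Eprs.

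The 2 genotype comparisons share no array, and their values can be set side by side. Higher in both were 11 of 18 cytosolic and 2 of 16 mitochondrial genes, where 30.1% of 11848 genes were. Across the 18 cytosolic genes the differences in the 2 fractions correlated with r = 0.80, across the 16 mitochondrial genes with r = 0.39, and across all genes with r = 0.53. Sex-linked genes such as Xist (-6.04 and -6.41) enter the r over all genes, and r without them was not computed. Genes are not independent replicates, and the fractions may share mice. The difference was larger under Lgr5-Hi than under Lgr5-Med for 17 of 18 cytosolic genes, all but Kars, and for 12 of 16 mitochondrial genes, where 59.9% of 12426 genes showed this. The median of that excess was 0.20 for cytosolic and 0.11 for mitochondrial genes, against 0.05 for all genes. These 2 medians were 0.12 and 0.04 with the trend on mean level removed.

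**Figure D2:**
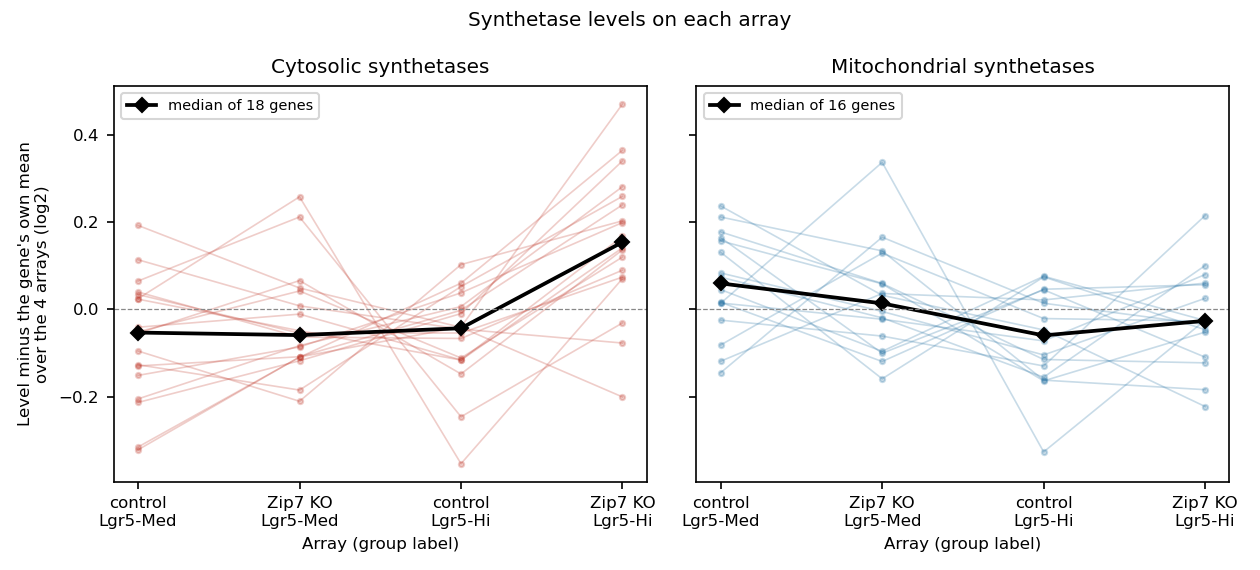
Level of each synthetase gene on each of the 4 arrays minus its own mean over them (y axis, log2), in thin lines for cytosolic (left) and mitochondrial (right) genes, with the median in black; the lines join arrays only to show which points belong to 1 gene. The cytosolic median is 0.15 on the Zip7 KO array labelled Lgr5-Hi and between -0.06 and -0.04 on the other 3, and the mitochondrial median lies between -0.06 and 0.06.

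The array on which a gene was highest differed between the classes. For 14 of 18 cytosolic genes it was the Zip7 KO array labelled Lgr5-Hi, where 27.5% of 11848 genes were highest on that array, and for none the control array with that label (19.9%). For 7 of 16 mitochondrial genes it was the control array labelled Lgr5-Med (27.2% of all genes), and for 5 the Zip7 KO array labelled Lgr5-Hi. These positions restate the differences above and below, which share arrays.

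Between fractions of control cells (Lgr5-Hi minus Lgr5-Med), the cytosolic synthetases lay near the background. Their median was -0.07 beside -0.04 over all genes, and 8 of 18 were higher where 43.3% of 12252 genes were. The mitochondrial median was -0.11, with 5 of 16 higher. Nars was at least 0.32 higher under Lgr5-Hi (0.38, where 7.7% of all genes were), and Iars (-0.38), Iars2 (-0.37) and Yars2 (-0.34) were that much lower (13.2% of all genes). Complex members and other cytosolic genes had medians of opposite sign here, with overlapping ranges. Of the 7 in the complex 1 was higher (Mars, at 0.19), with a median of -0.09 and a range from -0.38 to 0.19, and of the 11 outside it 7 were, with a median of 0.18 and a range from -0.31 to 0.38. Without Gars, Kars, Qars and Eprs the cytosolic median was 0.034, so its sign depends on which genes are counted.

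In Zip7 KO cells 14 of 18 cytosolic genes were higher under the label Lgr5-Hi than under Lgr5-Med, where 49.3% of 12158 genes were, with a median of 0.18. At least 0.32 higher were 7 of the 18, all outside the multisynthetase complex, where 15.1% of all genes were. These were Sars (0.58), Nars (0.47), Tars (0.46), Cars (0.44), Wars (0.41), Gars (0.36) and Yars (0.35). Of the 16 mitochondrial genes 8 were higher, with a median of 0.0074, a sign that turned under quantile normalisation, and Yars2 was the 1 gene at least 0.32 lower (-0.36, where 12.4% of all genes were). Cell type markers also differed between the fractions. In the Zip7 KO arrays all 5 goblet markers were higher under Lgr5-Hi, with a log2 summed level of 15.03 against 13.48, and all 5 Paneth markers were, at 14.33 against 13.32. In the controls all 10 were higher too, at 15.04 against 13.95 and 14.85 against 14.38. All 4 enteroendocrine markers were higher under Lgr5-Hi, with medians of 2.26 in Zip7 KO and 2.23 in control arrays. All 5 stem cell markers were lower, with medians of -1.70 and -1.44. Of the 5 enterocyte markers all were higher in Zip7 KO (median 0.61) and 4 in control arrays (0.04). Each of these markers was above the floor on all 4 arrays, and their part in the synthetase values was not tested.

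Each amino acid with both kinds of gene allowed a paired view. There were 15 such pairs, with Eprs in 2 of them (against Ears2 and Pars2) and Farsa standing for the cytosolic phenylalanine enzyme. Under the label Lgr5-Hi the cytosolic member had the higher genotype difference in 12 of 15 pairs, with a median gap of 0.21. The widest gaps were those of isoleucine (0.45), proline (0.44) and serine (0.36). In the pairs for asparagine (-0.04), tyrosine (-0.06) and tryptophan (-0.16) the mitochondrial member was the higher one. Under Lgr5-Med the cytosolic member was above in 10 of 15 pairs, with a median gap of 0.19, and histidine (-0.41) and tyrosine (-0.30) ran furthest the other way.

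**Figure D3:**
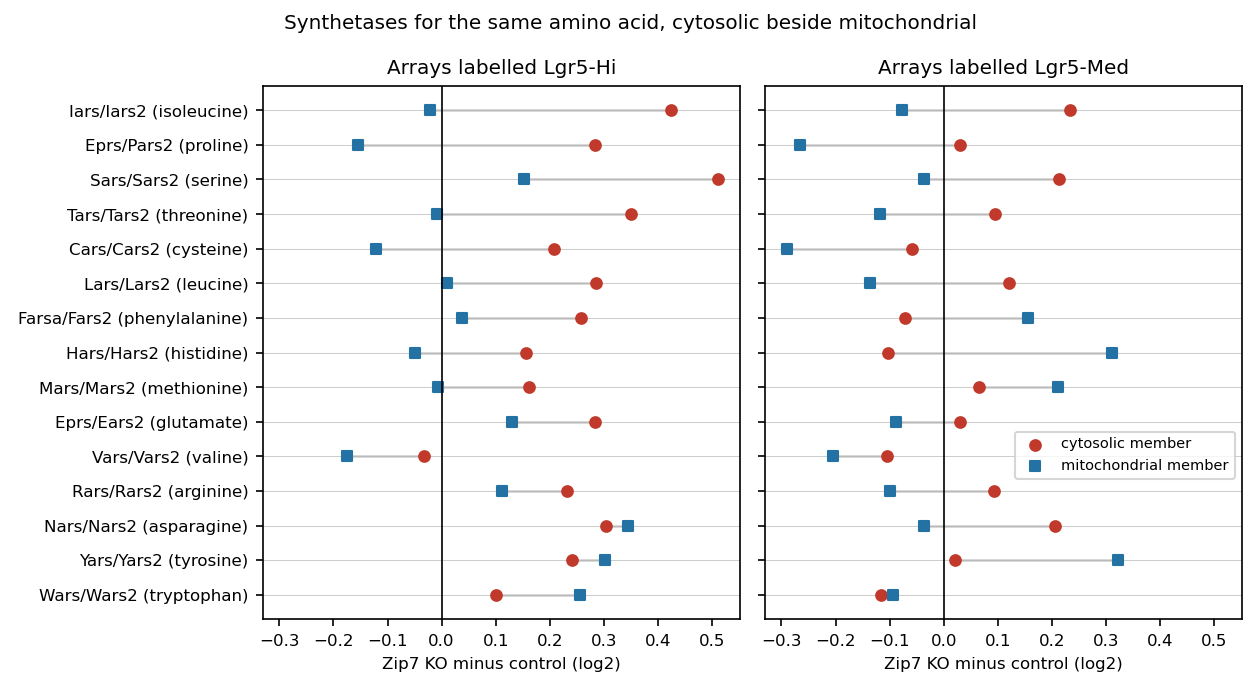
Zip7 KO minus control (x axis, log2) for the cytosolic (red circles) and mitochondrial (blue squares) synthetase of the same amino acid, for arrays labelled Lgr5-Hi (left) and Lgr5-Med (right), 1 array per group; rows are ordered by the gap on the left. The circle lies right of the square in 12 of 15 pairs on the left and 10 of 15 on the right.

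Genes that work with the synthetases were described from lists. The 3 scaffold genes of the multisynthetase complex were all higher in Zip7 KO under the label Lgr5-Hi, where 55.0% of all genes were. Aimp1, whose product is also released as a cytokine, was at 0.42, Eef1e1 at 0.35 and Aimp2 at 0.08. Under Lgr5-Med they were at -0.29, 0.27 and 0.04. Of 8 genes of synthetase-related editing and tRNA handling 3 were higher under Lgr5-Hi (55.0% of all genes), with a median of -0.05 beside 0.02 over all genes. The highest was Xpot, the exportin that carries tRNA out of the nucleus, at 0.44 and, under Lgr5-Med, 0.20. The lowest was Dtd1, which removes D-amino acids from tRNA, at -0.34 and -0.24. Among other charging enzymes, Sepsecs, which completes the charging of selenocysteine tRNA, was at -0.04 under Lgr5-Hi, and Tarsl2, a second cytosolic threonine enzyme, was below the floor on both of those arrays.

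Factors that act after charging were compared next. All 5 cytosolic elongation factors were higher in Zip7 KO under the label Lgr5-Hi (55.0% of all genes), with a median of 0.16. All 5 were under Lgr5-Med too (44.2% of all genes), with a median of 0.08 and the lowest at 6e-05. The largest was Eef1d, a nucleotide exchange factor, at 0.29 and 0.23. Of 15 mitochondrial translation factors that passed the filter 11 were higher under Lgr5-Hi, with a median of 0.05 beside 0.02 over all genes. Of 16 under Lgr5-Med 5 were, with a median of -0.06 beside -0.03, so both moved to the same side as all genes. Mto1, which modifies mitochondrial tRNA, was the highest at 0.26 and 0.21. Gatb, a subunit of the amidotransferase that makes mitochondrial glutaminyl-tRNA in place of a dedicated synthetase, was at 0.0040 and -0.29.

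ATF4 targets other than synthetases were compared because several cytosolic synthetases are known ATF4 targets. The list was chosen with earlier results of these data known, and a link between these genes and the synthetases was not tested. Of 30 such genes above the floor 28 were higher in Zip7 KO under the label Lgr5-Hi (55.0% of all genes), with a median of 0.28. Of these genes 11 were at least 0.32 higher (6.93% of all genes). Their largest differences exceeded those of any synthetase. Chac1, which degrades glutathione, was at 1.15, the pseudokinase Trib3 at 1.03 and the transcription factor Atf5 at 0.87. The cystine transporter gene Slc7a11, below the floor in the control array, was higher by at least 0.99. It passed the filter through the Zip7 KO array alone and is included in both counts. Under Lgr5-Med 19 of 28 were higher (44.2% of all genes), with a median of 0.08. None was at least 0.32 higher (3.47% of all genes), and 1, Pck2 at -0.37, was that much lower (8.39%). Atf4 itself was at 0.28 and 0.03. Of 7 genes for eIF2 alpha kinases and their counterparts 5 were higher under Lgr5-Hi (median 0.06) and 1 under Lgr5-Med (median -0.14). The PERK gene Eif2ak3 was at 0.11 and -0.19 and the interferon-induced kinase gene Eif2ak2 at -0.43 and -0.54. Of 6 measured genes of MYC and growth signalling 3 were higher under Lgr5-Hi (median 0.03) and 1 under Lgr5-Med (median -0.19). Myc itself was at 0.07 and -0.03.

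**Figure D4:**
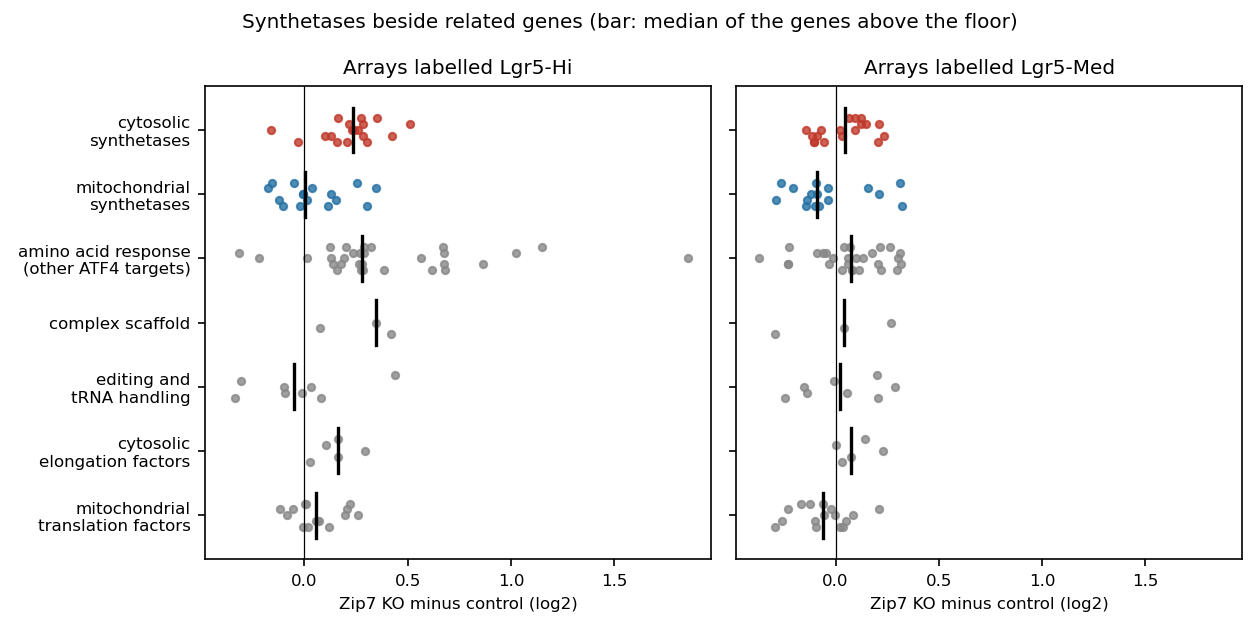
Zip7 KO minus control (x axis, log2, deposited values) for each gene of the synthetase classes and of 5 related lists, for arrays labelled Lgr5-Hi (left) and Lgr5-Med (right); points are genes that passed the filter on low values, spread vertically for legibility, and bars are medians. Under Lgr5-Hi the median is 0.24 for cytosolic synthetases, 0.28 for other ATF4 targets and 0.0023 for mitochondrial synthetases; under Lgr5-Med these are 0.05, 0.08 and -0.09.

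Markers of several cell types differed between genotypes. Of all genes compared, 55.0% were higher in Zip7 KO under Lgr5-Hi and 44.2% under Lgr5-Med. Under the label Lgr5-Hi all 9 lymphocyte and myeloid markers above the floor, of 10 measured, were lower in Zip7 KO (log2 summed level of the list 11.23 against 11.93), and all 10 were under Lgr5-Med (10.97 against 12.19). All 5 Paneth markers were lower as well, at 14.33 against 14.85 and at 13.32 against 14.38. Of 4 enteroendocrine markers none was higher under Lgr5-Hi (median -0.52) and 1 under Lgr5-Med (-0.23). Of 5 goblet markers 2 and 1 were, in the same order (medians -0.05 and -0.38). Of 5 stem cell markers 1 and 2 were (-0.14 and -0.06), and of 3 tuft cell markers 1 and 3 (-0.05 and 0.17). Of 4 stroma and endothelium markers that passed the filter, none was higher under Lgr5-Hi (-0.18) and all were under Lgr5-Med (0.10). The enterocyte markers had 2 of 5 higher under Lgr5-Hi, with a median of -0.13 and a log2 summed level of 14.13 against 14.09. Under Lgr5-Med 0 of 5 were higher, with a median of -0.51 and a summed level of 13.65 against 14.10. Of the 10 lymphocyte and myeloid markers 3 (Ptprc, Cd3g and Itgae) were not above the floor on either Zip7 KO array, against 1 (Itgae) and 0 in the controls labelled Lgr5-Hi and Lgr5-Med. The Paneth, enteroendocrine, goblet and enterocyte markers were above it on all 4. The part of these cell types, and of the sex of the mice, in the synthetase differences was not tested.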

How the data were processed

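RNA of sorted mouse crypt cells was measured on 4 Affymetrix arrays, 1 for each genotype and fraction label. The authors deposited RMA expression values for each probe set, per the submitters' processing notes, taken here as log2 from their range (3.08 to 14.6); software, its version and the genome build are not stated there. Of 35557 probe sets, 21789 had 1 gene symbol in the platform annotation, and the one with the highest mean stood for each of 19938 genes. The floor was percentile 95 of 1203 chemosensory receptor genes on each array. Genes above it on at least 1 of the 2 arrays entered a comparison. With 1 array per group nothing was tested, and this number limits the precision. Differences of log2 values were counted past 0.32 and past 2-fold. The members and the gene lists were chosen with earlier results of these data known. Values are given on every array for members at least 0.32 apart in a genotype comparison, for the 6 cytosolic and 4 mitochondrial members with the largest genotype differences, and for Wars, Gars and Kars; from other lists at most 4 genes of largest size are named, with Slc39a7, Lgr5 and Xist as checks of labels. Atf4, Eif2ak3, Myc, genes named for lying under the floor and genes named for opposite signs in the fractions fall outside that rule. They were chosen after their values were seen. Promoter windows are RefSeq's on GRCm38.p6. Counting and motif search were tested on simulated data. Alternatives were other probe set choices, scalings, floors and class memberships. Work was done in Python 3.11.15 with pandas 2.3.3.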

Additional observations from a re-analysis of the deposited data

Results flagged for a closer look

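The genotype difference had opposite signs in the 2 fractions, with at least 0.1 on either side, for 2 of 34 synthetases, 6 of 73 genes of the related pathway lists and 10.2% of 11848 genes. The synthetases were Hars (0.16 in cells labelled Lgr5-Hi, -0.10 in Lgr5-Med cells) and Wars (0.10 and -0.12). Neither met that size after quantile normalisation, after median centring or with the trend on mean level removed, where Hars was as near 0 as -0.046 and Wars as 0.018. The others were the complex scaffold gene Aimp1 (0.42 and -0.29), the ATF4 targets Phgdh (-0.32 and 0.18), Nupr1 (0.68 and -0.23) and Pck2 (0.13 and -0.37), and the eIF2 alpha kinase genes Eif2ak1 (0.36 and -0.14) and Eif2ak3 (0.11 and -0.19). Pck2 and Eif2ak3 no longer met it after quantile normalisation or with the trend removed. With 1 array per group, these differences between fractions were not tested.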

How the results depend on the processing

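Over 9 alternatives, of which 1 was chosen after seeing the data (the probe set of Aars and Exosc6 taken as Aars), the cytosolic median under the label Lgr5-Hi stayed between 0.16 and 0.29, and its gap to the mitochondrial median between 0.20 and 0.23. Not every alternative could move these values. Removing the floor could not, because all measured members stood above it. Averaging probe sets could change Iars alone, and centring could not change the gap. Medians were held to 0.1 on the log2 scale, counts and shares to 1.5 times, and single genes to the SD of all genes' differences (0.245 under Lgr5-Hi and 0.251 under Lgr5-Med). Past these limits, without Gars, Kars, Qars and Eprs, lay the cytosolic median between fractions in control cells (0.034, from -0.07) and its gap to the mitochondrial one (0.15, from 0.04), by the choice of genes alone. The other 214 values and 272 of single genes stayed within them, although the mitochondrial count higher under Lgr5-Hi ranged from 6 to 12 of 16. The limit for single genes was no smaller than the cytosolic median under Lgr5-Hi (0.24), so staying within it says little about their stability. Over the scalings the sign turned for 1 of 18 cytosolic and 6 of 16 mitochondrial genes under Lgr5-Hi, and for 1 and 2 under Lgr5-Med. All measured members stood above the floor on every array. No paired analysis was possible because the groups share only 1 replicate number; an additive fit of genotype and fraction, which leaves 1 residual degree of freedom, was not run.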
